A study of Drosophila melanogaster with 2 samples.

Results

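Chromatin immunoprecipitation peaks of the tagged protein ATbp were examined at 10 Drosophila melanogaster genes of axon guidance and neural adhesion. The genes were taken by name from a list of guidance ligands (sli, NetA, NetB), their receptors (robo1, robo2, robo3, fra) and surface adhesion proteins (Dscam1, Fas2, Fas3), out of 13968 protein-coding genes in the annotation. All 10 were found. The rule uses no measured value, but the list was drawn up with earlier results of these data known. For each gene, every peak summit in the gene body or within 5 kb of either end was collected. A summit is the base at which a peak is highest.

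The fly line was transgenic, strain ATbp-GFP, and carried ATbp fused at its C-terminal end to green fluorescent protein. Whole embryos of both sexes, aged 0 to 14 h, gave 2 biological replicates that form 1 group with no contrasting condition. The labels describe pulldown through the tag, while their antibody field names ATbp, and chromatin was sonicated to 200 to 800 bp. Whole embryos mix neural and other cells, so the cells behind a peak cannot be named, and the lists hold no transcript levels against which the stage could be checked. On genome build dm6, 4 deposited lists were read: a thresholded list of 5921 peaks made from both replicates by irreproducible discovery rate (the IDR list), and relaxed lists of 30000 peaks from replicate 1, replicate 2 and the pooled data. Relaxed lists admit weak peaks by design. Peaks were ranked by the authors' signal value within each list, with rank 1 the strongest, and signal was not compared between lists.

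Growing axons steer by secreted cues and by contact with their neighbours. At the midline of the fly nerve cord, Slit (sli) repels axons that carry Robo receptors, whereas the Netrins attract axons that carry Frazzled (fra), the fly counterpart of vertebrate DCC. Immunoglobulin-type adhesion proteins act beside these systems: Dscam1 lets sister branches of a neuron recognise and avoid each other, and Fas2 and Fas3 mark and bundle subsets of axons and also lie on epithelial cells.

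Sequence around 6 IDR summits is given first, because these windows carry the contrasts described later: the strongest summits of NetA, Fas3 and robo2, and the promoter summits of robo2, NetA and Fas2. They do not stand for all strong summits of the group, some of which held less A+T. Each is the summit base with 50 bases on either side, on the dm6 plus strand, read from the reference genome of that release. Capitals mark runs of 8 or more A or T bases.
NetA intron, X:14612441-14612541: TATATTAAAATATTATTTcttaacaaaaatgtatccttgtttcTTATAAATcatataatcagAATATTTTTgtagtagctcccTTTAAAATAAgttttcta
Fas3 intron, 2L:18325235-18325335: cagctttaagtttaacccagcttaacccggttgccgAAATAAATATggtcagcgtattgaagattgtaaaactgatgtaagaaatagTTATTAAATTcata
robo2 intergenic, 2L:1425009-1425109: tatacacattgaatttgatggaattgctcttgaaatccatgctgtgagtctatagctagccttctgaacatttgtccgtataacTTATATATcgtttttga
robo2 promoter, 2L:1420413-1420513: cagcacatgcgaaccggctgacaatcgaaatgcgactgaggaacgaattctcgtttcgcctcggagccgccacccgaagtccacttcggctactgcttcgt
NetA promoter, X:14654174-14654274: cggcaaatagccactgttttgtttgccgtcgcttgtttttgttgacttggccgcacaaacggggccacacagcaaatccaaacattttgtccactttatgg
Fas2 promoter, X:4206037-4206137: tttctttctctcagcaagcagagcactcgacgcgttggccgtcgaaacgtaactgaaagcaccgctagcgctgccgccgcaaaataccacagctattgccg
The NetA intron window held 4 such runs, the longest of 18 bases, and 81.2% A+T. The promoter windows of robo2, NetA and Fas2 held none, as did 8 other windows of the 37. The NetA promoter window contained CACTGT, the reverse complement of ACAGTG, starting at base 12 of the window. A match of letters is a description of the window and not a binding site.

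In the IDR list, 9 of the 10 genes had at least 1 summit, and their 37 summits ranged from 0 at robo3 to 7 at NetA. The same was true of 45.3% of all protein-coding genes, which are mostly far shorter, and of 68.2% of the 2071 protein-coding genes in the members' length range (8.45 to 73.3 kb). Because 9 members are 35.1 kb or longer, a narrower range of 382 genes (35.1 to 73.3 kb) was added after the values were seen, and in it the share was 71.7%. With only 10 genes, 9 of 10 lies close to this background. Inside the gene body alone, 8 of 10 members held an IDR summit, against 50.3% and 61.5% of genes in the wider and narrower ranges. The median member had 4 summits, where the median gene of the narrower range had 2 with an interquartile range of 0 to 4.

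**Figure D1:**
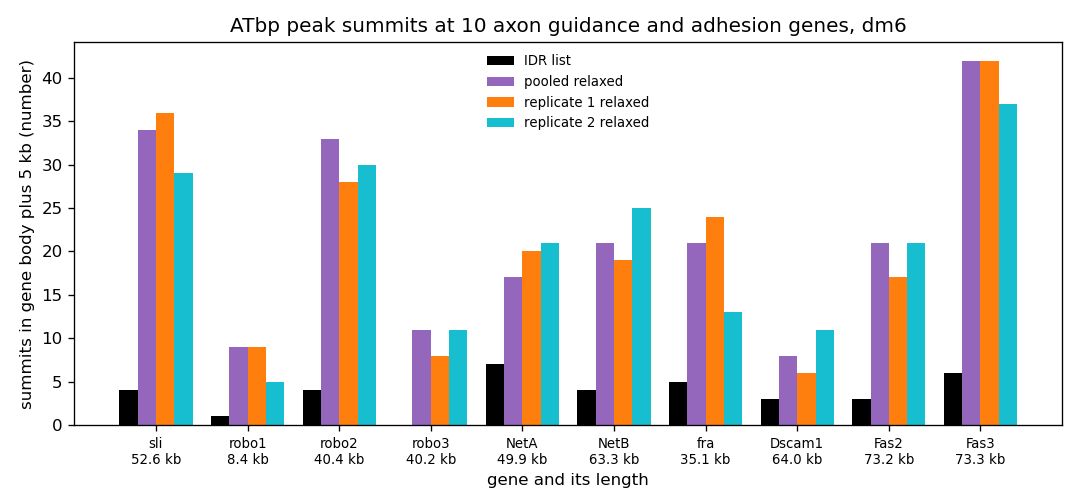
Number of ATbp summits (y axis) in the body plus 5 kb of each gene (x axis, with gene length) in the IDR list and in the pooled, replicate 1 and replicate 2 relaxed lists. IDR counts run from 0 to 7 and pooled relaxed counts from 8 at Dscam1 to 42 at Fas3; the bars are single counts and carry no error.

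Set against length, the median over the members was 0.0789 IDR summits per kb of gene and 0.0592 per kb of searched window. The medians of the narrower range were 0.0442 and 0.0371, and those of the wider range, with a median length of 17.4 kb, were 0.0717 and 0.0457. The 10 windows together spanned 600.5 kb and held 0.0616 IDR summits per kb, compared with 0.0442 per kb over the chromosomes. The same windows held 217 pooled relaxed summits, 209 in replicate 1 and 203 in replicate 2, or 0.361, 0.348 and 0.338 per kb. The pooled density over the chromosomes was 0.224 per kb. A pooled relaxed summit was found at all 10 members and at 92.7% of genes of their length range. The mean count was 3.7 IDR and 21.7 pooled summits over the members, against 2.99 and 16.0 over genes of the narrower range. IDR peaks made up 17.1% of the members' pooled summits (Wilson 95% interval 12.6 to 22.6) and 19.7% of the whole pooled list. The share of the whole list thus lay inside the members' interval. Differences between medians are descriptions of single lists and were not tested.

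**Figure D2:**
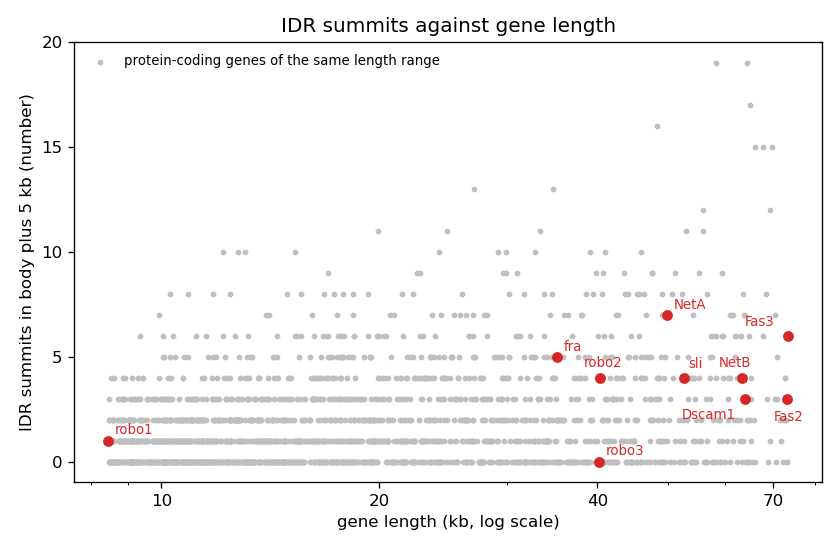
IDR summits in the body plus 5 kb (y axis) against gene length (x axis, log scale) for the 10 members (red) and the other protein-coding genes of 8.45 to 73.3 kb (grey). Counts spread widely at any length: NetA with 7 and Fas3 with 6 lie in the upper part of the cloud, robo3 lies at 0, and grey genes reach 19.

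Among the ligands, NetB carried the strongest peak of the whole group. NetB (X, 14686038 to 14749376, minus strand) spans 63.3 kb and had 4 IDR summits, with 21 in the pooled relaxed list, 19 in replicate 1 and 25 in replicate 2. Its strongest summit ranked 86 of 5921 with a signal of 1363.6, against a list median of 220.5. The same peak ranked 68 in replicate 1 and 149 in replicate 2, near the top of both lists. It was intronic, and the start nearest to it was that of hog, a gene nested in NetB, so position alone does not assign it to NetB. A further summit at 14689290, in the 3' UTR, ranked 1348 (1625 and 1154 in replicates 1 and 2). The other 2, at 14727754 and 14744012, were intronic, with ranks of 3056 and 3093. The NetB promoter had a pooled summit of rank 7760, below the last IDR peak, which ranked 6759 in replicate 1 and 20133 in replicate 2.

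NetA, the neighbouring netrin gene (X, 14604012 to 14653928, minus strand), had the most IDR summits of the group, 7 over 49.9 kb, with 17 pooled, 20 in replicate 1 and 21 in replicate 2. At least as many IDR summits were found at 5.17% of genes in the wider length range and at 13.9% in the narrower. Of the 7, 6 were intronic, and 5 of those lay in the longest intron, which makes up 62.6% of the gene. The strongest, at 14612491, ranked 655 with a signal of 569.7, and 573 and 839 in replicates 1 and 2. The next, at 14633467 and 14627554, ranked 917 and 983, with replicate ranks of 681 and 1183 for the former and 1497 and 738 for the latter, so all 3 were strong in each replicate. The start nearest to the strongest was that of the neighbouring gene sbm, 9.91 kb away against 41.3 kb for NetA. A start of sbm was also the nearest to the summits at 14621674, 14622444 and 14627554. Position alone therefore does not assign these summits to NetA. The weakest, at 14654224, lay 296 bp upstream of the NetA start and ranked 5717 with a signal of 131.8, close to the lowest IDR signal, 128.5. Replicate 1 placed it at 4379 and replicate 2 at 9381, so replicate 2 alone would not have placed it among its strongest 5921.

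At sli, which encodes the midline repellent (2R, 15869495 to 15922118, minus strand, 52.6 kb), there were 4 IDR summits, 34 pooled, 36 in replicate 1 and 29 in replicate 2. Of these, 3 were intronic. The strongest intronic one, at 15887190, ranked 2157 in the IDR list and 2438 and 1931 in the replicates. The intronic summits at 15897841 and 15915493 ranked higher in replicate 1 (2400 and 3269) than in replicate 2 (6034 and 9810). The former also lies inside the noncoding gene asRNA:CR46471, and the latter lies 502 bp from a start of lncRNA:CR44373. The remaining summit, at 15869254, ranked 2588 and lay just past the 3' end of sli, 107 bp from a start of Rif1, a gene known for its part in replication timing, and far from any sli promoter. Both sli starts had pooled summits, of ranks 9900 and 11111, that are not in the IDR list.

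**Figure D3:**
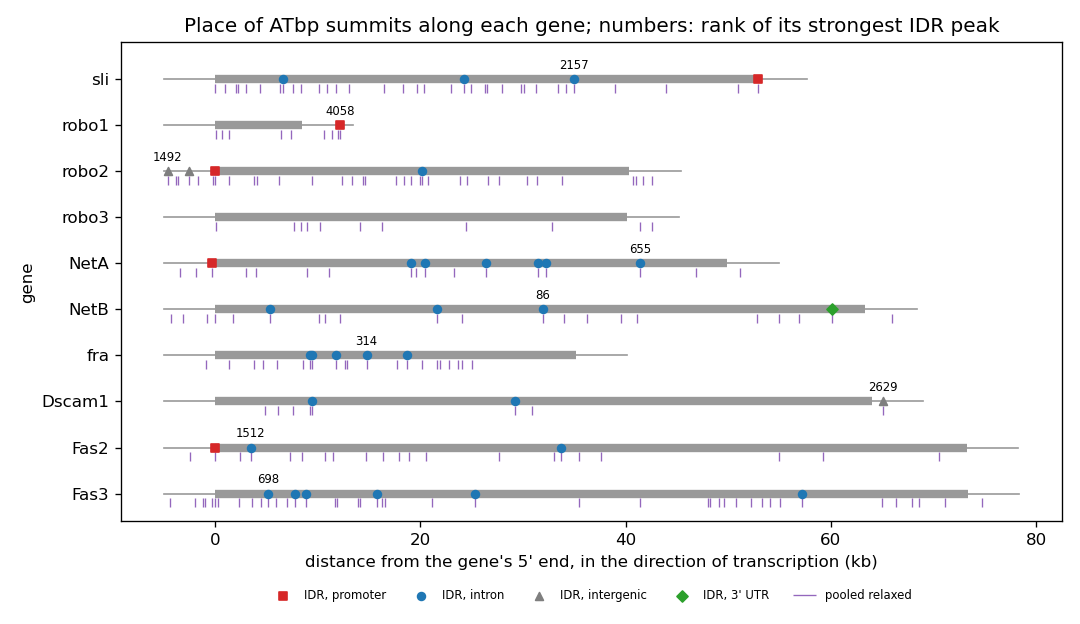
Place of the summits along each gene, as distance in kb from its 5' end in the direction of transcription (x axis), one gene per line with its body as a thick bar and the 5 kb flanks as thin lines. Symbols are IDR summits coloured by annotation class, ticks are pooled relaxed summits, and the numbers are the rank of each gene's strongest IDR peak; the IDR summits of fra and Fas3 are all intronic.

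The receptors ranged from no IDR summit to 5. The 35.1 kb gene fra (2R, 12529053 to 12564184, plus strand) had 5, all in its longest intron, which is 76.1% of the gene and also holds CG33752. It had 21 pooled summits, 24 in replicate 1 and 13 in replicate 2, the widest gap between replicates in the group. The strongest fra summits, at 12543824 and 12538265, ranked 314 and 317 with signals of 828.5 and 823.5. Replicate 1 ranked them 366 and 260, and replicate 2 ranked them 289 and 411, so both were strong in each. A further summit at 12538469 lies 204 bp from the latter in the same 458-bp peak interval, and it ranked 982 in replicate 1 but 5055 in replicate 2. Counting that interval as a single region leaves 4 separate IDR regions at fra. The summits at 12540864 and 12547725 ranked 1631 and 4674. The start nearest to each of the 5 was that of CG33752. For the summit at 12543824 it lay 1.865 kb away, against 14.8 kb for the fra start. For the summit at 12538265 the distances were 7.42 and 9.21 kb. Position alone therefore does not assign these summits to fra. The fra start had a relaxed summit in replicate 1 (rank 14677) and none in the pooled or replicate 2 list.

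The 3 Robo genes differed from each other. The gene robo2 (2L, 1380086 to 1420453, minus strand, 40.4 kb) had 4 IDR summits, 33 pooled, 28 in replicate 1 and 30 in replicate 2. These 4 summits sat mostly outside the transcribed part: 1 lay 10 bp from the transcription start, at 1420463, and 2 lay 2.52 and 4.61 kb upstream, at 1422975 and 1425059. The upstream pair was stronger (ranks 1609 and 1492) than the promoter summit (rank 3974), and the intronic summit at 1400292 ranked 1854. Replicates 1 and 2 ranked the promoter summit 3580 and 5886. The summit at 1425059 is nearer to a start of CG43401, 3.42 kb away, than to robo2.

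By contrast, robo3 (2L, 1256417 to 1296596, plus strand), of almost the same length at 40.2 kb, had no IDR summit. Its relaxed summits numbered 11 pooled, 8 in replicate 1 and 11 in replicate 2, and the strongest pooled one ranked 15585. Among robo3's relaxed summits, 1 had a partner within 100 bp in the other replicate, whereas 14 of robo2's 28 replicate 1 summits did. A gene with at least as many pooled summits as robo3 made up 60.2% of the narrower range, so its number of weak peaks was common for its length.

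The shortest member, robo1 (2R, 22692524 to 22700970, minus strand, 8.45 kb), had 1 IDR summit, 9 pooled, 9 in replicate 1 and 5 in replicate 2. That IDR summit, at 22688772, ranked 4058 and lay past the 3' end, 215 bp from a start of Ppa, an F-box protein gene. It ranked 7314 in replicate 1 and 2954 in replicate 2. The robo1 promoter itself had a pooled summit at 22700295 with rank 6294 and signal 122.6, a little under the lowest IDR signal, and ranks of 6934 and 7921 for the promoter peaks of the replicates. These replicate peaks did not match each other within 100 bp. The replicate 2 peak instead matched a replicate 1 peak of rank 16245. Thus robo1 enters the count of 9 only through a summit at a neighbouring promoter.

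Of the adhesion genes, Fas3 had the most summits. Fas3 (2L, 18320102 to 18393441, plus strand, 73.3 kb), a homophilic adhesion protein also found at epithelial junctions, had 6 IDR summits, 42 pooled, 42 in replicate 1 and 37 in replicate 2. In the narrower length range 18.3% of genes had at least as many IDR summits, but 3.14% had at least as many pooled relaxed summits. All 6 IDR summits lay in its longest intron, 85.5% of the gene, and 4 of them fell within 15.8 kb of the 5' end. The strongest, at 18325285, stood 5.18 kb from the start and ranked 698 with a signal of 550.4, and 789 and 662 in replicates 1 and 2. Those at 18328956, 18335881 and 18327891 ranked 1980, 2728 and 2765. The Fas3 start had a pooled summit of rank 8126, outside the IDR list. The nearest promoter summits of the replicates ranked 17020 and 3657, and did not match each other within 100 bp. The replicate 2 one instead matched a weaker pooled summit at 18320351, of rank 13124.

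The NCAM-like gene Fas2 (X, 4132887 to 4206093, minus strand, 73.2 kb), of nearly the same length, had 3 IDR summits, 21 pooled, 17 in replicate 1 and 21 in replicate 2. A promoter summit lay 6 bp from the start at 4206087, and ranked 4337, with ranks of 5161 and 3872 in the replicates. The strongest, at 4202613, lay 3.48 kb inside the gene and ranked 1512 (1072 and 2321). The last, at 4172372, was intronic and ranked 5609.

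Dscam1 (2R, 7317924 to 7381899, minus strand, 64.0 kb), known for its very many alternative exons, had 3 IDR summits, 8 pooled, 6 in replicate 1 and 11 in replicate 2. Its pooled and replicate 1 counts were the lowest of the 10 genes, while in replicate 2 robo1 had the lowest with 5. Its strongest IDR summit, at 7316804, was intergenic, downstream of the 3' end, with rank 2629. Introns 2 and 6 of the longest transcript held the others, at 7372430 and 7352656, with ranks of 2897 and 4349. The latter ranked 3111 in replicate 1 and 6835 in replicate 2. Neither Dscam1 start had a summit within 500 bp in any of the 4 lists. In the narrower range 44.5% of genes had at least as many IDR summits and 72.8% at least as many pooled ones. The pooled median there was 14, with an interquartile range of 7 to 22.75, so both Dscam1 counts were common for its length.

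Most of the members' IDR summits were intronic. A summit within 500 bp of any transcription start was classed as promoter, and the rest by the annotation at that base, with UTRs at the 5' end and coding bases taken ahead of introns. Introns held 28 of 37 (75.7%, Wilson 95% interval 59.9 to 86.6), promoters 5 (13.5%, 5.91 to 28.0), intergenic sequence 3 and the 3' UTR 1. Over the IDR list as a whole, introns held 47.2% and promoters 34.6%, and at genes of the members' length range the shares were 58.1% and 32.7%. That is the wider range, with a median length of 17.4 kb against 51.3 kb for the members. Introns also make up 68.0% of the members' windows, which falls within the interval of the intronic share, so the summits were intronic about as often as the bases. Promoters make up 5.67% of the windows, just under the interval of their share, and held 0.147 IDR summits per kb against 0.0686 in introns. Coding sequence is 12.4% of the windows and held 0 of 37 IDR summits, with a Wilson upper limit of 9.41% (a limit of 3 counts gives 8.11%). Over the whole IDR list it held only 0.338% of summits, and 0.309% at genes of the members' length range, so the 0 is near that background. Of the 217 pooled summits, 10 were in coding sequence (4.61%, against 2.34% of the whole pooled list). The longest intron of each gene together held 24 of the 37, in 51.3% of the searched bases. Successive IDR summits of a gene lay a median of 8.05 kb apart, and 9 of the 28 gaps were under 3 kb.

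IDR summits at the members' own starts were near the background of genes of like length in number, and of lower rank. In the IDR list 3 of 10 members, robo2, NetA and Fas2, had a summit within 500 bp of a start, against 14.9% of all protein-coding genes and 27.4% and 32.5% of genes in the wider and narrower length ranges, so the count is near the background. The other 2 of the 5 promoter-class summits were at Ppa and Rif1. The promoter summits of robo2, NetA and Fas2 ranked 3974, 5717 and 4337, all below the median signal of the IDR list. In the relaxed lists, a promoter summit was found at 8 members in the pooled list, 9 in replicate 1 and 6 in replicate 2. In the pooled list, 35.3% of all genes and 64.6% of genes of the wider length range had one. The share of genes with one was not taken for the replicate lists. Over the whole lists, promoters held 26.7% of summits in replicate 1 and 20.9% in replicate 2, so fewer promoter summits in replicate 2 were not particular to the members. In both replicates and the pooled list alike, robo1, robo2, NetA, NetB, Fas2 and Fas3 had one. At robo1 and Fas3 the replicate peaks whose ranks are given above did not match each other. Of the rest, sli and robo3 lacked a promoter summit in replicate 2, fra had it in replicate 1 alone and Dscam1 had none.

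Relaxed peaks of each replicate lay close to the members' IDR summits. Each of the 37 was matched, to within 100 bp, by relaxed peaks of replicate 1 and of replicate 2 (37 of 37, interval 90.6 to 100). The same held for 92.6% of the whole IDR list. Because that list was made from both replicates, such matches and high replicate ranks are largely built in and do not test agreement. The match distance also caps the offsets at 100 bp. Offsets were taken from the IDR summit to the peak of each replicate, not between the replicates. The median offset was 7 bp in replicate 1 and 10 bp in replicate 2, and the largest offsets were 60 and 92 bp. Ranks were looser: Spearman's rho between replicates was 0.665 over the 37 summits and 0.698 over 5481 summits of the whole list, both across summits, which are not independent replicates. Ranks differed by more than 2-fold for 12 of the 37. Replicate 1 held 34 of the 37 among its strongest 5921, replicate 2 held 33, and 30 were in both. Replicate 1 gave the higher rank for 17 of the 37.

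**Figure D4:**
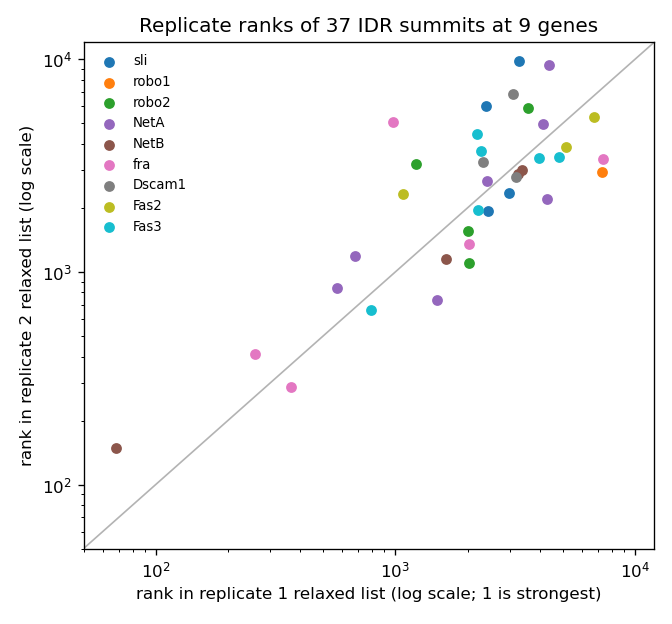
Rank of each of the 37 IDR summits in replicate 1 (x axis) and replicate 2 (y axis), both on log scales with 1 the strongest, coloured by gene; the grey line marks equal ranks. The NetB summit is lowest at 68 and 149 and the strong fra summits follow; 12 summits differ by more than 2-fold, 6 of them in the stronger part of the IDR list, and the summit farthest from the line is that of fra at 982 and 5055.

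Relaxed peaks at these genes recurred between the replicates about as often as in the whole lists. Of the 209 replicate 1 relaxed summits, 47.4% (40.7 to 54.1) had a partner within 100 bp in replicate 2, and of the 203 of replicate 2, 48.8% (42.0 to 55.6) had one in replicate 1. The whole lists gave 44.2% in both directions. Among the 180 pooled summits that are not in the IDR list, 60 had a match in each replicate, 51 matched replicate 1 and not replicate 2, 41 the reverse, and 28 matched neither. In signal, 22 of the 37 IDR summits (59.5%, 43.5 to 73.7) were at or above the median signal of the list, which divides the whole list evenly by construction.

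Base composition at the members' summits was close to that of the whole list, while the 3 summits at their own starts held less A+T. Windows of the summit base and 50 bp on each side held 64.3% ± 9.44 A+T over the 37 summits (SD over summits), against 64.7% ± 9.26 over all 5921. Intronic summits of the members held 66.2% ± 8.21 (n = 28), and those of the list 65.0% ± 8.49. The 3 summits at members' own starts held 42.6% at robo2, 44.6% at Fas2 and 52.5% at NetA, whereas all 2051 promoter summits averaged 64.1% ± 10.2, and 15.3% of them were at or below 52.5%. These are the windows without A/T runs printed above. Low A+T was not confined to them: the fra summit at 12538265 (rank 317) held 53.5%, and the strongest Dscam1 summit, at 7316804, held 51.5%.

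**Figure D5:**
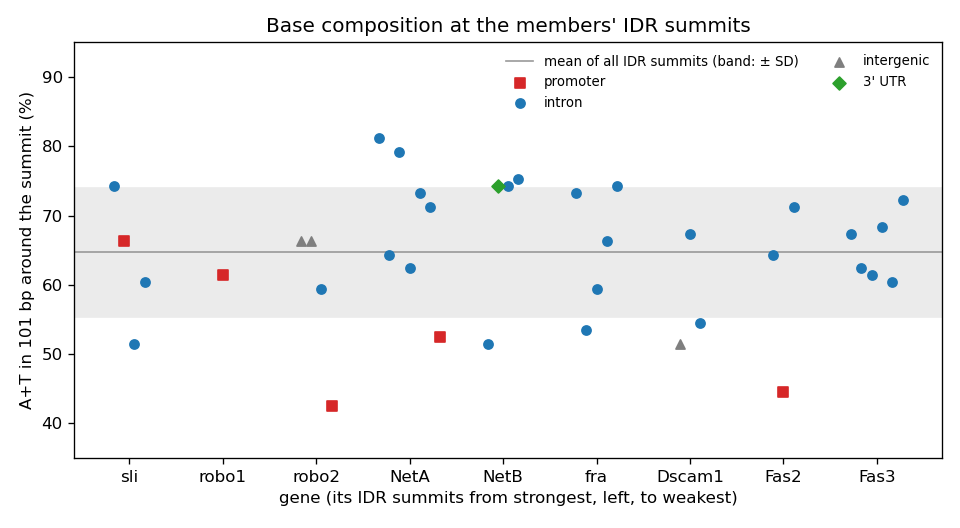
A+T content in the summit base and 50 bp on each side of each IDR summit (y axis, %), by gene (x axis), with summits of a gene ordered from strongest to weakest and marked by class. The grey line and band are the mean and SD of all 5921 IDR summits; 8 of the 37 summits lie below the band, 3 of them at the starts of robo2, NetA and Fas2 and 5 elsewhere.

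Short sequences were counted in the same windows on both strands. ACAGTG was in 5 of 37 windows (13.5%, interval 5.91 to 28.0) and in 7.03% of all IDR windows. CAAACA was in 7 (18.9%) against 18.3%, GAGAG in 7 (18.9%) against 11.7%, CCAGGA in 1 against 0.777% and CACACACA in 1 against 2.45%. A run of 8 or more A or T was in 26 (70.3%, 54.2 to 82.5) against 70.9%. In each of the 6 cases the share of the whole list lay inside the members' Wilson interval. These sequences were picked from earlier results of the same data, and CCAGGA and CACACACA rest on 1 window each. Of the 5 ACAGTG windows, 4 were those of fra at 12543824, its strongest summit, NetA at 14622444 and 14654224, and Fas3 at 18345475.

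Of 71 other genes of guidance and adhesion, 46 (64.8%) had an IDR summit and 23 (32.4%) a promoter one. Within the members' length range the counts were 34 of 49 (69.4%) and 18 of 49 (36.7%), against backgrounds of 68.2% and 27.4%. Those 49 genes had a median length of 31.2 kb, where the background genes had 17.4 kb. The narrower range, with a median of 47.2 kb, gave 71.7% and 32.5%. By role, an IDR summit was found at 4 of 7 ligands, 12 of 17 receptors, 13 of 17 effectors and 17 of 30 adhesion genes. The strongest summits by role were at the receptor phosphatase gene Ptp4E (rank 198, 281 and 161 in replicates 1 and 2), the leucine-rich repeat adhesion gene caps (208; 126 and 374), comm3 (469; 759 and 380), a relative of the Robo sorting factor comm, and the semaphorin gene Sema1a (592; 647 and 593). By number, kirre, an adhesion gene of myoblast fusion, led with 28 over 394.1 kb, followed by Sema1a with 10, the phosphatase gene Ptp10D with 9, and the integrin gene mew and the transmembrane gene otk with 8 each. None of the 71 had a summit ranked above that of NetB.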

How the data were processed

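Per the labels, ATbp was immunoprecipitated through its GFP tag from whole embryos in 2 biological replicates, and both name the same possible control, not analysed here. The peak lists are the authors' own. The peak signal is the authors', as deposited, on a scale that the labels do not give, and was used to rank and describe peaks within 1 list. In the file format the deposited significance column holds −log10 q-values, and it was not used for ranking. Sources used here do not name the aligner, the peak caller or the IDR threshold. The files hold no read counts, so depth is unknown, and intervals on shares cover counting error of summits only.

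Coordinates are dm6, written 1-based, set against Ensembl release 115 (BDGP 6.54, transposable elements left out; 24111 transcription start sites of 18277 genes). All 10 members had the same span in the RefSeq table of that assembly. A summit counted for a gene if it lay in the body or within 5 kb, for a promoter within 500 bp of a start, and as shared within 100 bp. With 1 group and no contrast, no p-value was computed. All 10 members are named. Of the 71 other genes, the gene with the strongest summit of each role and the 5 genes with the most summits are named. A neighbouring or nested gene is named where a member's summit lies at its start or inside it. In some cases it is named where its start is the nearest to a summit. Members, gene list and motifs were chosen with earlier results of these data known. The counting was tested on simulated data. Python 3.11.15, NumPy 2.4.6, SciPy 1.17.1, pandas 2.3.3 and matplotlib 3.10.9 were used. Alternatives were other flanks, promoter widths, match distances and windows, the stronger part of the IDR list, overlap of intervals, and each replicate's 5921 strongest peaks alone. The sequence at the strongest NetB summit is not reported here.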

Additional observations from a re-analysis of the deposited data

How the results depend on the processing

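The number of genes with an IDR summit ranged from 8 to 10 under the alternatives run. With IDR peaks at or above the median signal only, the total fell from 37 to 22, all 22 shared by both replicates, and no summit at a member's own start was left (0 of 10 genes). Per kb of gene, the median of 0.0789 was 0.0490 with no flank, 0.0563 with 2 kb, 0.102 with 10 kb and 0.0348 with the stronger peaks, and 0.0793 to 0.0971 when either replicate was left out. Per kb of window, the median of 0.0592 was 0.0490 with no flank, 0.0522 with 2 kb, 0.0644 with 10 kb and 0.0296 with the stronger peaks, and 0.0670 to 0.0693 without either replicate. The intronic share rose to 93.3% with no flank, which drops the flanking summits by construction. Mean A+T was 65.8% with no flank, 65.5% with the stronger peaks and 61.6% with 100 bases on each side of the summit, and 62.6% to 63.6% without either replicate. These leave-out settings take the 5921 strongest peaks of the other replicate. In all, 19 of 52 recomputed values over the group and 12 of 70 for single genes moved. By the limit used, a total of 45 with 10 kb, against 37, did not count as moved. With the stronger peaks only, robo1 fell to 0, sli and NetB from 4 to 2, NetA from 7 to 4 and Fas2 from 3 to 1. The robo1 count fell to 0 with no flank, with 2 kb and without replicate 2, robo2 had 1, 2 and 7 summits with no flank, 2 kb and 10 kb, and robo3 had 1 with 10 kb. The cause was not tested. No paired analysis was possible because the 2 replicates form 1 group. The files give no depth, so the limit it sets on weak peaks could not be measured.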
